A study of Mus musculus with 4 samples.

Results

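The genes described here are 9 bone and cartilage genes: the transcription factors Runx2 and Sp7, the mineralization enzyme gene Alpl, the bone matrix glycoprotein genes Spp1 and Ibsp, and the matrix protein genes Acan, Comp, Matn2 and Postn. They were chosen by name as osteogenic and chondrogenic genes other than collagens and Sox factors, and their probes were found through RefSeq accessions. All 9, of 21154 genes with a symbol, had a probe, 12 probes in all. RNA came from thymospheres, sphere-shaped colonies grown from unsorted thymus digests in dishes to which cells hardly attach, and described in the labels as the progeny of epithelial stem cells of the thymus. Adult thymospheres were grown from the thymus of C57Bl6/N mice 5 to 6 weeks old and embryonic thymospheres from that of C57Bl6/N embryos at embryonic day 14.5. Both were cultured for 7 days in a medium with B27 supplement, hydrocortisone, insulin, EGF and bFGF, with fresh medium on day 5. Each group had 2 samples, each on its own 1-colour Agilent array, and all 4 arrays lay on 1 slide. The sources used here give neither the number of animals per sample nor which arrays are biological and which technical replicates. The p-values therefore cover the spread among these samples, and that spread may be technical.

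Bone and cartilage come from mesenchymal progenitors. Runx2, a runt-domain factor that binds DNA with its partner Cbfb, directs cells towards the osteoblast fate, and the zinc finger factor Sp7 (osterix) acts after it. Osteoblasts then lay down collagen with acidic glycoproteins such as osteopontin (Spp1) and bone sialoprotein (Ibsp), and the membrane enzyme tissue-nonspecific alkaline phosphatase (Alpl) removes pyrophosphate, an inhibitor of mineral growth. Cartilage holds aggrecan (Acan), the thrombospondin family protein COMP and the matrilins, while periostin (Postn) is made by periosteum, ligament and many fibroblasts. Several of these genes also work outside the skeleton: osteopontin is a product of macrophages and epithelia, and matrilin 2 (Matn2) belongs to the matrix of many soft tissues.

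Promoters from the RefSeq tables of the mouse build GRCm38.p6 are shown for Runx2, whose transcript was called higher in adult spheres. They are also shown for Spp1 (the first of 2 entries), detected on every array, and its family member Ibsp, detected on none. Each runs 5′ to 3′ from 250 bases before to 50 bases after an annotated transcript start, and capitals mark the runt-domain core (TGTGGT, or ACCACA on the other strand) and the TATA box (TATAAA, or TTTATA).
Runx2 (chr17:44814578-44814877, minus strand): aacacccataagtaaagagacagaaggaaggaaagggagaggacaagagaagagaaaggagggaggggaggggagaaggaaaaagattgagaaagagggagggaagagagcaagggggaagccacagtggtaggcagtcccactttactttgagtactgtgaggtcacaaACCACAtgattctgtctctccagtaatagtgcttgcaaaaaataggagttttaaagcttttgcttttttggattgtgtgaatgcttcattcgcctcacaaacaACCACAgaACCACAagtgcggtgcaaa
Spp1 (chr5:104434861-104435160, plus strand): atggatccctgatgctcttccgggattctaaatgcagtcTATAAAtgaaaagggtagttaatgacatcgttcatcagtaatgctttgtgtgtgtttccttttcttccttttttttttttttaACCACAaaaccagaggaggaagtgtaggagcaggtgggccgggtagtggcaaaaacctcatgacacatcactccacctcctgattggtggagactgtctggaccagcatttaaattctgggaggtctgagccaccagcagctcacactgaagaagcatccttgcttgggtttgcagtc
Ibsp (chr5:104299037-104299336, plus strand): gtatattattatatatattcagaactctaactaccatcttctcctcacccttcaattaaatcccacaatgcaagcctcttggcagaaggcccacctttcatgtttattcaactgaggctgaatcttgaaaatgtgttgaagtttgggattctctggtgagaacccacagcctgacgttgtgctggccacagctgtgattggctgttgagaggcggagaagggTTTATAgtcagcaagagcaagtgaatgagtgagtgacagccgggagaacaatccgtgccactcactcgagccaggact
The Runx2 window held 3 matches to the runt-domain core, the Spp1 window 1 and the Ibsp window none, and 16.8% of 32851 windows of 300 bases in the table held at least 1. The letters of the TATA box stood once in the Spp1 window, from base -211, and once in the Ibsp window, from base -28 on the other strand. They stood in 13.6% of all windows. The matches to the 2 motifs did not overlap in these windows. The second Spp1 entry, not shown, held no match to either motif. Of the other genes, Alpl, Acan and Postn have an entry in the table, none with a runt-domain core. The TATA box letters stood in 1 Alpl window, from base -192 on the other strand, and in 1 Postn window, from base -26. Sp7, Comp and Matn2 were not matched in the table. These matches describe letters in the windows and are not shown to be binding sites.

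Signal was read as the processed spot signal, and levels are given as log2 of that signal over the array's 75th percentile, so 0 stands at the percentile. Summed levels of a marker list are instead on the linear scale. Each adds the signal over the percentile of 1 probe per gene of the list, dim and untested probes included. The percentile was 132 and 66.0 for adult and 126 and 61.5 for embryonic arrays, and 71.6% and 49.6% of adult spots and 48.3% and 35.7% of embryonic spots were well above background. Adult array 2 had 2756 spots marked as outliers and left out, the other arrays 95 to 185. Sensory receptor genes (smell, taste and pheromone) gave a measure of faint signal: of their 1507 probes 51.4% and 23.2% passed the background in adult spheres, against 6.10% and 2.26% in embryonic spheres. Thymic epithelial markers (9 genes) passed the background 9 and 6 times on adult arrays and 7 times on each embryonic array, with summed levels of 49.3 and 30.7 in adult and 149 and 259.5 in embryonic spheres; 5 of 7 tested were called lower in adult spheres and none higher, and Aire and Psmb11 passed on 1 adult array alone. Fibroblast markers, 8 genes, passed on every array. Of 13667 genes tested with limma, 53.5% were called at an adjusted p under 0.05, 17.5% higher and 36.1% lower in adult spheres. Centring on the median of all probes gave 1690 higher and 9837 lower calls in adult spheres, and centring on the tested genes 2775 higher and 1042 lower. Where a spot is dim, meaning not well above background, its level is only an upper bound, and raising each dim level to the lowest passing level of its array gave 1382 higher and 4744 lower calls. A gene dim on both embryonic arrays entered the test through its adult signal alone and so had to be higher in adult spheres. The adjusted p of such a gene, given with its bound, is no separate support, nor is the number of alternatives that kept its call. A gene dim on 1 embryonic array, such as Runx2, Comp, Prg4, Enpp1 and Tnfrsf11b, entered through its adult signal alone too. That choice favoured a higher adult level, so the adjusted p of such a gene is not free of it. Hapln3, dim on 1 adult array, entered through its embryonic signal alone, which favoured a lower adult level. Leaving out adult array 1 or adult array 2 left no gene called, with 6435 and 5528 genes at an unadjusted limma p under 0.05. Over the tested genes the median change was -0.79 on the log2 scale, adult minus embryonic, against which each change below can be read.

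Spp1, Matn2 and Postn were well above background on all 4 arrays. Runx2 and Comp were so on both adult arrays and on 1 embryonic array. Acan and Sp7 passed on adult array 1 alone. Alpl and Ibsp did not pass on any array. The 5 genes well above background on both arrays of a group entered the test, which called Runx2 higher and Matn2 lower in adult spheres. This count of 2 in 5 stands beside the 53.5% called among all tested genes and is not above it. Of the 3 genes that passed the background on every array 1 was called, beside 46.1% of all such genes.

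**Figure D1:**
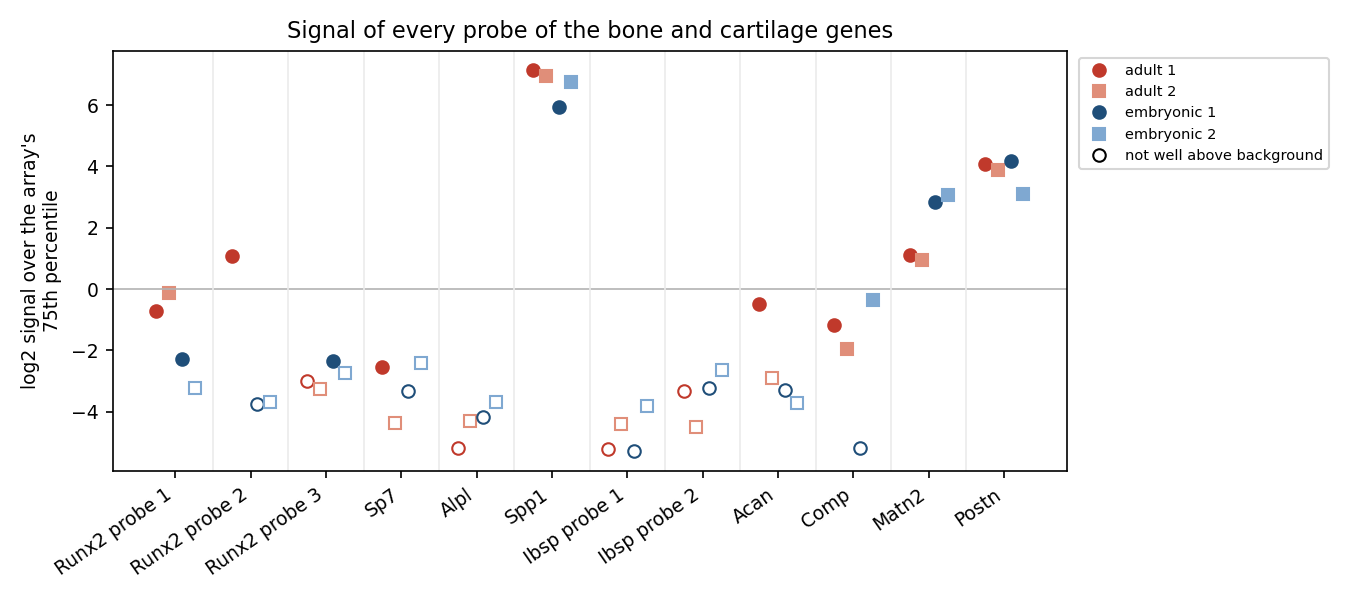
The vertical axis gives the log2 signal over the array's 75th percentile for the 12 probes of the 9 genes, adult arrays in red left of embryonic arrays in blue, with open symbols where the probe was not well above background. Spp1, Matn2 and Postn have filled symbols on all 4 arrays, Alpl and Ibsp on none, and heights of different probes cannot be compared.

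Runx2 transcript was called higher in adult spheres. Its tested probe, A_52_P460545, had levels of -0.72 and -0.12 on adult arrays, against -2.28 and -3.22 on the embryonic arrays. Both adult values lay above both embryonic values, a separation seen for 84.1% of the 13375 genes measured on 4 arrays, and the second embryonic array was not well above background. The probe entered the test through its adult signal alone, which favoured a higher adult level. The log2 fold change was 2.33 (SE 0.45, adjusted p = 0.0136 in limma), of which the dim embryonic value sets part. With that value raised to the limit of its array the change was 1.60 (SE 0.39, adjusted p = 0.0242). Such bulk values cannot tell more Runx2-expressing cells from more transcript per cell.

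The other Runx2 probes gave partial readings. Probe A_52_P55876 had a processed signal of 276 on adult array 1, against 9.52 and 4.79 on the embryonic arrays, and its spot on adult array 2, with a signal of 86.4, was marked as an outlier and left out. Both adult signals, the marked one included, were above both embryonic signals, which were dim. These signals are not scaled, and without the marked spot only 1 adult value remains. Of the 13375 genes measured on 4 arrays, 84.1% separated by group in scaled levels. Probe A_65_P18181, which is designed on a non-coding RefSeq transcript of Runx2, had processed signals of 16.6 and 6.82 in adult spheres and 24.7 and 9.30 in embryonic spheres and passed the background only on embryonic array 1. After scaling its levels were -2.99 and -3.27 in adult and -2.36 and -2.72 in embryonic spheres. With 3 of these 4 values dim, no direction can be read from this probe. Neither of these probes entered the test.

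The Runx2 call was lost without adult array 1 (log2 fold change 2.63, adjusted p = 0.0779) or adult array 2 (2.02, adjusted p = 0.104), in the deposited value table (0.74, adjusted p = 0.0799), after normexp background correction (0.61, adjusted p = 0.128), after centring on all probes (1.14, adjusted p = 0.0636) and with no filter on dim probes (2.33, adjusted p = 0.0506). Its sign was positive in each of the 17 alternatives that gave a value. The wide adult signal on sensory receptor probes moved the same way, and its part in the Runx2 result was not tested.

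Sp7, the factor that follows Runx2 in osteoblasts, was at or near background. Its processed signals were 22.8 and 3.22 in adult spheres and 12.6 and 11.6 in embryonic spheres, which after scaling are levels of -2.54 and -4.36 in adult and -3.32 and -2.41 in embryonic spheres. Only adult array 1 passed the background, so the levels have no order.

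Among the other skeletal transcription factors and cofactors, a list of 17 genes, 15 were tested, 3 were called higher and 5 lower in adult spheres, beside 17.5% and 36.1% of all tested genes. All 3 called higher were dim on both embryonic arrays. The homeobox gene Dlx6, which acts in limb and jaw skeletal development, had levels of 1.71 and 0.72 on adult arrays, against -3.74 and -2.70 on the embryonic arrays, where it was not well above background, so adult spheres were at least 12.7-fold higher (adjusted p = 0.00756). Its neighbour family member Dlx5, an osteoblast factor, was at least 4.55-fold higher (levels of -0.18 and -0.36 in adult and -3.18 and -3.11 in embryonic spheres, adjusted p = 0.00734). Mef2c encodes a factor of chondrocyte hypertrophy and of muscle and was at least 2.49-fold higher (adjusted p = 0.00775). The Dlx5 call was lost in the deposited value table (0.84, adjusted p = 0.0575) and after normexp (0.74, adjusted p = 0.0909), as was that of Mef2c (0.24, adjusted p = 0.498, and 0.43, adjusted p = 0.26), which raising the dim levels ended too (1.31, adjusted p = 0.076). The Dlx6 call was kept in 15 of 17 alternatives, all but those without an adult array. Apart from the fit with no filter, these alternatives used probes chosen through their adult signal. For genes dim on both embryonic arrays that count is therefore no separate support. These bounds belong to the scaling by the 75th percentile and leave out the error of the means.

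The 5 factors called lower in adult spheres included Runx1, a runt-domain relative of Runx2 known from blood formation, and Cbfb, the shared DNA-binding partner of the runt-domain proteins. Runx1 had levels of -1.08 and -0.38 in adult spheres and 0.75 and 0.81 in embryonic spheres (log2 fold change -1.51, SE 0.37, adjusted p = 0.0217). Trps1, a zinc finger repressor of cartilage development, fell too (-1.40, SE 0.33, adjusted p = 0.0205). All 4 arrays were well above background for Runx1, Cbfb, Trps1, Atf4 and Zfp521, and their groups did not overlap, as for 82% of the 9626 such genes. None of these 5 calls was kept once each array was centred on the tested genes (Runx1 adjusted p = 0.158, Cbfb adjusted p = 0.195, Trps1 adjusted p = 0.156, Zfp521 adjusted p = 0.272, Atf4 adjusted p = 0.339). Runx3, the third runt-domain gene, stood at a log2 change of 0.09 (SE 0.33, adjusted p = 0.82).

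Osteopontin transcript was abundant enough to be read far above background in both kinds of sphere. Spp1 had processed signals of 18732 and 8142 on adult arrays, against 7711 and 6646 on the embryonic arrays. After scaling its levels were 7.15 and 6.95 in adult and 5.93 and 6.76 in embryonic spheres, so the groups did not overlap, as for 82% of the 9626 genes that passed the background on every array. The log2 fold change of 0.70 (SE 0.39, adjusted p = 0.169 in limma) did not pass the test, and its 95% interval ran from -0.28 to 1.69.

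Embryonic array 1 was the lowest for Spp1, and embryonic array 2 lay close below the adult arrays. Without embryonic array 2 the difference was called (1.12, adjusted p = 0.0471), as it was in the deposited value table (1.56, adjusted p = 0.019), and centring on all probes turned its sign (-0.48, adjusted p = 0.379). Of 7 tested macrophage markers, 4 were called lower and none higher in adult spheres, beside 36.1% and 17.5% of all tested genes. The summed levels of all listed macrophage markers were 75.2 and 105 in adult and 109 and 105 in embryonic spheres. Most of that sum was Itgam, an integrin gene (-0.01, SE 0.34, adjusted p = 0.972), and without it the sums were 11.0 and 12.8 in adult and 34.3 and 23.8 in embryonic spheres. Itgam had 3 probes on the array, and its values are those of the chosen probe only. Lyz2 (-2.31), C1qa (-2.49), Cd68 (-1.13) and Csf1r (-1.03) were the 4 lower genes, and Ptprc, the pan-leukocyte surface gene, passed the background on 1 adult array alone. Of 6 tested markers of osteoclasts, another source of osteopontin, 1 was called higher and 1 lower in adult spheres, beside 17.5% and 36.1% of all tested genes. The higher one, Calcr, was dim on both embryonic arrays and so had to be higher. The summed levels of all listed osteoclast markers were 92.2 and 77.8 in adult and 52.6 and 40.1 in embryonic spheres. Most of that sum was Ctsk, the cathepsin K gene, which was not called (0.96, SE 0.32, adjusted p = 0.0509), and without it the sums were 7.59 and 7.32 in adult and 8.16 and 4.62 in embryonic spheres. The part of these cells in the Spp1 signal was not tested.

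Ibsp, which codes for the bone sialoprotein that nucleates mineral, was not detected. Its first probe had processed signals of 3.56 and 3.14 in adult spheres and 3.22 and 4.36 in embryonic spheres, and its second 13.1 and 2.91 in adult and 13.6 and 9.91 in embryonic spheres. No value of either probe was well above background.

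Spp1 and Ibsp belong to a family of 5 acidic glycoprotein genes that are neighbours on chromosome 5, in the order Dspp, Dmp1, Ibsp, Mepe, Spp1 with no other protein-coding gene between them in the RefSeq table. Dmp1, an osteocyte and dentin matrix gene, had levels of 0.04 and -0.23 in adult and -2.62 and -1.06 in embryonic spheres (log2 fold change 1.75, SE 0.56, adjusted p = 0.0453). Dspp, the main dentin matrix gene, was at -1.41 on both adult arrays and at -5.22 and -3.70 on the embryonic arrays, where it was dim, so adult spheres were at least 2.06-fold higher (adjusted p = 0.012). Mepe, an osteocyte gene, had levels of -2.47 and -1.27 in adult and -2.56 and -2.46 in embryonic spheres and was not called (0.64, SE 0.47, adjusted p = 0.276). Dmp1 and Dspp were thus called, Spp1 and Mepe were not, and Ibsp was not measurable. The Dmp1 call was kept in 10 of 18 alternatives and the Dspp call in 12 of 17, and neither was kept without an adult array. For Dspp the calls lost were also those with no filter (adjusted p = 0.0554, with another probe), after normexp (0.67, adjusted p = 0.156) and with dim levels raised (1.04, adjusted p = 0.127).

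**Figure D2:**
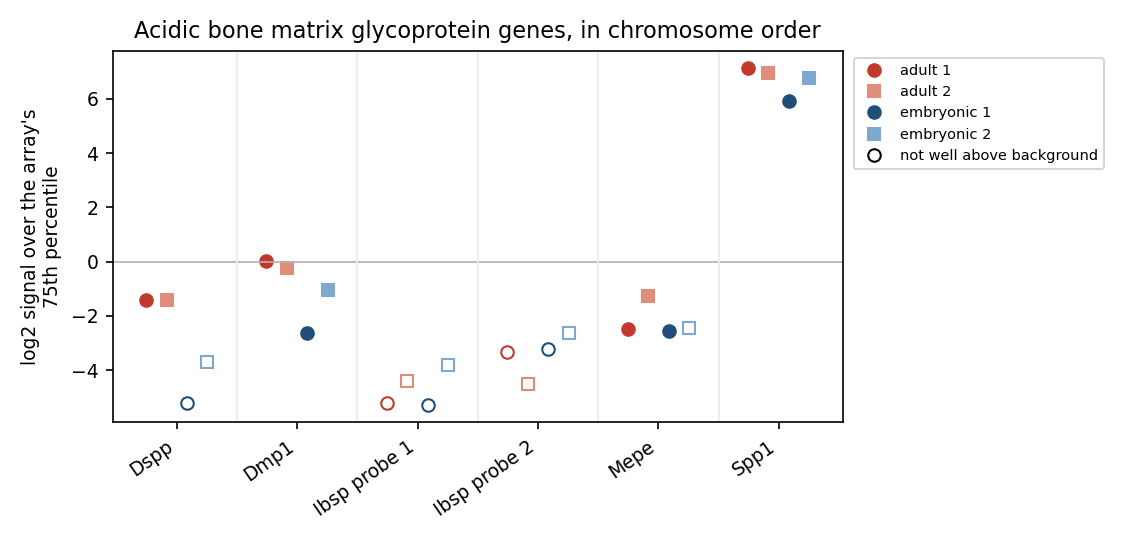
The vertical axis gives the log2 signal over the array's 75th percentile for the 5 neighbouring genes of chromosome 5 in their order on it, adult arrays in red left of embryonic arrays in blue, open where not well above background. Both Ibsp probes are open on all 4 arrays, and Spp1 at the end of the cluster is filled on all 4, between 5.93 and 7.15.

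Alpl transcript was not detected in either group. The processed signals were 3.65 and 3.33 in adult spheres and 7.02 and 4.82 in embryonic spheres, none well above background. The 3 other alkaline phosphatase genes of the mouse, Alpi, Akp3 and Alppl2, were not tested either, and only Alppl2 passed the background, on 1 adult array.

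Other genes of bone matrix and mineralization divided. Of 19 listed, 13 were tested, 4 were called higher and 3 lower in adult spheres, beside 17.5% and 36.1% of all tested genes. Besides Dmp1 and Dspp these were Enpp1, which makes the pyrophosphate that Alpl removes, at -1.39 and -1.94 in adult and -2.88 and -3.98 in embryonic spheres (log2 fold change 1.76, SE 0.47, adjusted p = 0.0285), and Mgp, an inhibitor of calcification, at 10.27 and 9.92 in adult and 9.06 and 8.23 in embryonic spheres (1.45, SE 0.40, adjusted p = 0.0308). For Mgp both adult values lay above both embryonic values. The groups separated for 82% of the 9626 genes that, like Mgp, passed the background on every array. For Enpp1 embryonic array 2 was dim, so that value is a bound, and with it raised to the limit of its array the change was 0.65 and not called (adjusted p = 0.272). The Enpp1 call was kept in 8 of 17 alternatives and the Mgp call in 12 of 18.

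The phosphate transporter gene Slc20a2 (-1.37, SE 0.30, adjusted p = 0.0169) and the osteocalcin genes Bglap2 (-2.95, SE 0.72, adjusted p = 0.0219) and Bglap3 (-2.83, SE 0.72, adjusted p = 0.0249) were called lower in adult spheres. Bglap2 had levels of -1.54 and -2.02 in adult and 0.12 and 2.23 in embryonic spheres. Bglap, Bglap2 and Bglap3 are near-identical copies whose probes may share transcript, and Bglap itself stood at a log2 change of 0.86 (SE 0.78, adjusted p = 0.369), so the members of this family cannot be separated with certainty. Centring on the tested genes ended the calls of Slc20a2 (-0.71, adjusted p = 0.119), Bglap2 (-2.30, adjusted p = 0.072) and Bglap3 (-2.17, adjusted p = 0.0858), which for Bglap2 and Bglap3 left most of the change. The Slc20a2 call was kept in 10 of 18 alternatives and those of Bglap2 and Bglap3 in 14 of 18 each. In the deposited value table the Slc20a2 change was -0.54 and not called (adjusted p = 0.131). Sparc, the collagen-binding osteonectin gene, stood at a log2 change of 0.36 (SE 0.32, adjusted p = 0.355), and 3 of 5 osteocyte markers were tested. Of these Fgf23, a phosphate-regulating hormone gene, passed on every array (-0.05, SE 0.34, adjusted p = 0.909 in limma). It stood at 5.74 and 6.30 in adult and 6.00 and 6.14 in embryonic spheres. Fgf23 had 2 probes on the array, and these values are those of the chosen probe only. Dmp1 and Mepe are given above. Sost and Phex were not well above background on any array.

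Of the 4 listed genes of bone cell signalling, 3 were called higher in adult spheres and none lower, beside 17.5% and 36.1% of all tested genes. Tnfsf11, which encodes the osteoclast differentiation factor RANKL that thymic medulla also depends on, had levels of -2.20 and -0.80 in adult and -5.42 and -3.25 in embryonic spheres, where it was dim, so adult spheres were at least 1.94-fold higher (adjusted p = 0.0358). That call was kept in 10 of 17 alternatives and lost with quantile normalization (1.62, adjusted p = 0.212), in the deposited value table (0.46, adjusted p = 0.248), with no filter (2.83, adjusted p = 0.0854), after normexp (0.48, adjusted p = 0.269), with dim levels raised (0.95, adjusted p = 0.243) and without an adult array. Its decoy receptor gene Tnfrsf11b stood at a log2 change of 1.22 (SE 0.40, adjusted p = 0.0484), with embryonic array 2 dim, a call kept in 5 of 17 alternatives and lost with dim levels raised (0.99, adjusted p = 0.0536). For the vitamin D receptor gene Vdr the value of 3.42 (SE 0.58, adjusted p = 0.0138) rests on adult array 1 alone, at 2.00, since its spot on adult array 2 was left out.

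Aggrecan transcript was well above background on adult array 1 only. Acan had processed signals of 93.3 and 8.88 in adult spheres and 13.0 and 4.72 in embryonic spheres, which are levels of -0.50 and -2.89 in adult and -3.29 and -3.70 in embryonic spheres. The 3 arrays other than adult array 1 were not well above background, where levels have no order. Acan therefore did not enter the test. With no filter on dim probes none of Acan (adjusted p = 0.182), Alpl (adjusted p = 0.269), Ibsp (adjusted p = 0.245) and Sp7 (adjusted p = 0.594) was called in limma.

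COMP, the pentameric thrombospondin of cartilage and tendon, was read differently on the 2 embryonic arrays. Comp had processed signals of 58.0 and 17.1 on adult arrays, against 3.47 and 47.5 on the embryonic arrays, and levels of -1.19 and -1.95 in adult and -5.19 and -0.37 in embryonic spheres. The embryonic values lie on either side of both adult values, and that of embryonic array 1 was dim. The log2 fold change of 1.21 (adjusted p = 0.503) did not pass the test, with a 95% interval from -2.54 to 4.96. Its value was -1.19 without embryonic array 1 (called, adjusted p = 0.0427), and leaving out embryonic array 2 made it 3.62 (adjusted p = 2.05e-06), so the direction rests on which embryonic array is used. Raising the dim level made it 0.20 (adjusted p = 0.855).

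Matn2 was the 1 gene of the 9 called lower in adult spheres. It encodes matrilin 2, a filament-forming adaptor protein of soft tissue matrix. Processed signals were 286 and 127 on adult arrays, against 908 and 512 on the embryonic arrays, and levels were 1.12 and 0.94 in adult and 2.84 and 3.06 in embryonic spheres. The values within each group lay close together, and each adult level was below each embryonic level. Such a separation was seen for 82% of the 9626 genes that passed the background on every array. The log2 fold change was -1.92 (SE 0.31, adjusted p = 0.0101 in limma, 95% interval -2.69 to -1.15), so the embryonic level was 3.79-fold that of adult spheres.

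The fall in Matn2 went past the median of all tested genes, and it was called under all 14 alternatives that used all 4 arrays, between -3.11 and -1.25. The calls lost were those without adult array 1 (-2.01, adjusted p = 0.0779) and adult array 2 (-1.84, adjusted p = 0.0906). Fibroblast markers had summed levels of 411 and 409.8 in adult and 781 and 452 in embryonic spheres, with all 8 genes well above background on every array. Of these markers 2 were called lower and 1 higher in adult spheres, beside 36.1% and 17.5% of all tested genes. The part of fibroblasts in the Matn2 result was not tested.

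Periostin transcript was detected well above background in both groups. Postn had processed signals of 2222 and 980.2 in adult spheres and 2281 and 529 on the embryonic arrays, and levels of 4.07 and 3.89 in adult and 4.17 and 3.11 in embryonic spheres. The adult values lie between the embryonic ones. The log2 fold change was 0.34 (SE 0.44, adjusted p = 0.519), with a 95% interval from -0.76 to 1.45, which does not show that the levels were alike. It was -0.19 without embryonic array 2 and 0.88 without embryonic array 1, it was -0.84 when arrays were centred on all probes, and it was called only in the deposited value table (1.17, adjusted p = 0.0228).

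**Figure D3:**
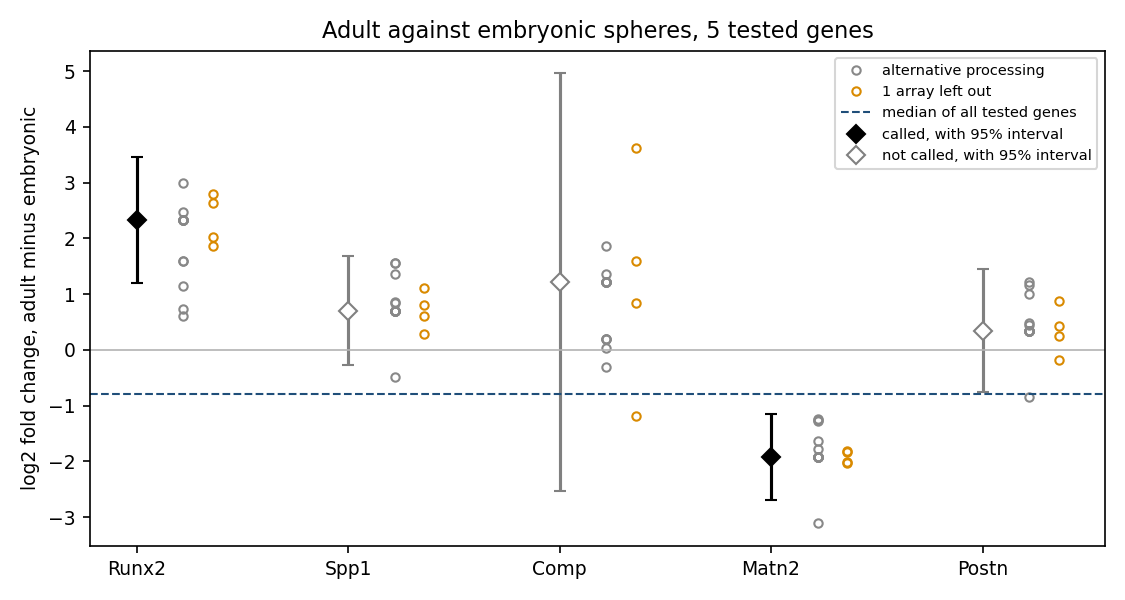
Diamonds give the log2 fold change, adult minus embryonic, of the 5 tested genes with the 95% interval (black where called), grey circles the value under each alternative processing and orange circles the value with 1 array left out. Runx2 stays above 0 and Matn2 below 0 throughout, Spp1, Comp and Postn cross 0, and the dashed line is the median of all tested genes at -0.79.

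In the list of cartilage matrix proteins, matrilins and lecticans, 5 of 16 genes were tested, 3 were called higher and 1 lower in adult spheres, beside 17.5% and 36.1% of all tested genes. Prg4, the joint lubricant gene lubricin, had levels of 2.52 and 2.55 in adult and -1.13 and -2.73 in embryonic spheres (log2 fold change 4.46, SE 0.57, adjusted p = 0.00775), with embryonic array 2 dim. With that value raised to the limit of its array the change was 3.97 (adjusted p = 0.0149), and the call was kept in 15 of 17 alternatives, all but those without an adult array. Matn4, a matrilin gene, changed opposite to its relative Matn2, but the value of 5.12 (SE 0.71, adjusted p = 0.0105) rests on adult array 1 alone, its spot on adult array 2 having been left out. Cilp, an intermediate layer protein gene of cartilage, was dim on both embryonic arrays and at least 1.92-fold higher (adjusted p = 0.0132), but not called in the deposited value table (0.74, adjusted p = 0.0655), after normexp (0.62, adjusted p = 0.133) or with dim levels raised (0.94, adjusted p = 0.16). Hapln3, a link protein gene dim on adult array 2, was called lower (-1.29, SE 0.33, adjusted p = 0.025), which was no longer called after centring on the tested genes (adjusted p = 0.163). Matn1, the cartilage-restricted matrilin, was not well above background on any array. The large proteoglycan gene Vcan, of the aggrecan family, stood at a log2 change of -0.85 (SE 0.41, adjusted p = 0.123).

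Chondrocyte markers were sparse. Of 8 such genes, 5 and 3 passed the background in adult spheres and 2 on each embryonic array, with summed levels of 3.39 and 2.23 in adult and 3.09 and 5.57 in embryonic spheres. Of the 3 tested, the collagen genes Col9a1 (at least 2.31-fold, adjusted p = 0.00783) and Col10a1 (at least 3.53-fold, adjusted p = 0.00867) were called higher in adult spheres and dim on both embryonic arrays. Sox9, the chondrocyte transcription factor gene, passed on every array and was called lower (-1.73, SE 0.39, adjusted p = 0.0181). These counts of 2 higher and 1 lower stand beside 17.5% and 36.1% of all tested genes. The main cartilage collagen gene Col2a1, like Matn1, was not well above background on any array. The part of chondrocytes in the values above was not tested.

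Of the thrombospondin genes related to Comp, Thbs4 in adult spheres was at least 5.65-fold higher, at 0.06 and 0.03 against -3.40 and -3.65 on the embryonic arrays, where it was dim (adjusted p = 0.00734), a call kept in 15 of 17 alternatives. Thbs1 (-0.33, SE 0.30, adjusted p = 0.376), Thbs2 (0.44, SE 0.32, adjusted p = 0.263) and Thbs3 (-0.34, SE 0.33, adjusted p = 0.396) were not called. Tgfbi, the relative of periostin, was called lower in adult spheres, at 2.28 and 1.84 against 3.47 and 4.74 in embryonic spheres (-2.04, SE 0.50, adjusted p = 0.0228). Centring on the tested genes ended that call (adjusted p = 0.0943).

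Among aggrecanases, Adamts1 was called lower in adult spheres, with levels of 0.53 and 1.10, against 3.76 and 3.81 in embryonic spheres (-2.97, SE 0.34, adjusted p = 0.00746). This call was kept under all 14 alternatives with all 4 arrays. Adamts4 (0.73, SE 0.31, adjusted p = 0.0891) and Adamts5 (-0.17, SE 0.53, adjusted p = 0.79) were not called. Of the 3 aggrecanase genes 1 was thus called lower and none higher, beside 36.1% and 17.5% of all tested genes. Of 5 receptor genes for osteopontin and periostin, all were well above background on every array. In adult spheres 1 was called higher and none lower, beside 17.5% and 36.1% of all tested genes. This was Itgb3, the beta chain of the vitronectin receptor (0.97, SE 0.30, adjusted p = 0.0421). Its sign turned (-0.21) when arrays were centred on all probes. The values of Cd44, Itgav, Itgb5 and Itga9 lay between -0.60 and 0.23.

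Over all 72 skeletal genes of these lists, 50 were tested, 15 (30%) were called higher and 11 (22%) lower in adult spheres, beside 17.5% and 36.1% of all tested genes. Their median log2 fold change was 0.18, against -0.79 over all tested genes. Of the 15 called higher, 7 were dim on both embryonic arrays and 2 rested on a single adult array. Among the 34 that passed the background on every array, 3 were higher and 10 lower by the test, with a median of -0.33, against -0.97 over all 9626 such genes. After centring on the tested genes, 10 of the 11 lower calls were lost and all 15 higher calls were kept, leaving 17 higher and 1 lower, while centring on all probes gave 10 higher and 24 lower, and raising dim levels 9 higher and 11 lower. Without adult array 1 none of 47 genes was called (18 at an unadjusted limma p under 0.05), and without adult array 2 none of 50 (17 at that limit). Of 330 tested sensory receptor genes 287 were called higher in adult spheres, beside 17.5% of all tested genes. Those dim on both embryonic arrays had to be higher, like the skeletal genes dim there, since both entered through their adult signal. Their shared direction is therefore no separate support. The part of faint adult signal in the skeletal calls was not tested.

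**Figure D4:**
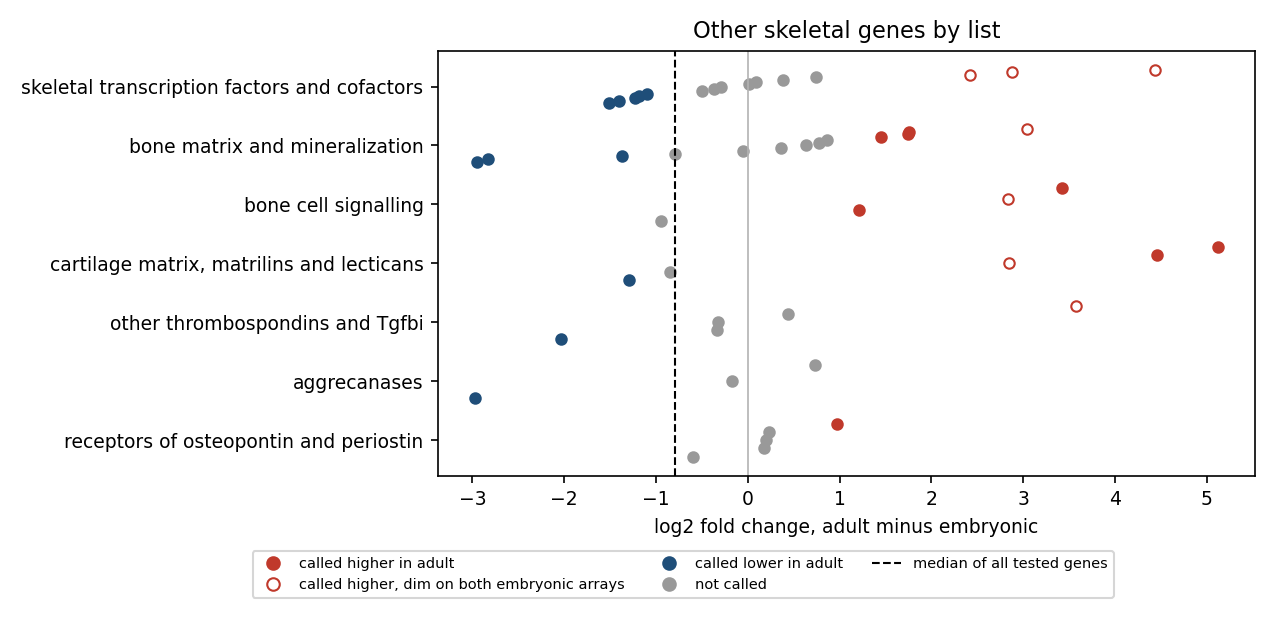
Each point is 1 of the 50 tested skeletal genes, placed by its log2 fold change, adult minus embryonic, within its list, red where called higher and blue where called lower in adult spheres, open where dim on both embryonic arrays. Red points reach 5.12 and blue points -2.97, and the dashed line is the median of all tested genes at -0.79.

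For Spp1, Matn2 and Postn, which passed the background on every array, the skeletal gene with the most similar pattern was sought among 34 candidates, by the root mean square difference of levels centred on each gene's own mean over the 4 arrays. For Spp1 it was the phosphate transporter gene Slc20a1 (difference 0.12 log2 units, own change 0.78, SE 0.34, adjusted p = 0.0967). For Matn2 it was the related transporter gene Slc20a2 (difference 0.30). For Postn it was Cd44, a hyaluronan and osteopontin receptor gene (difference 0.16). With 4 arrays in 2 groups these likenesses are descriptions only.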

How the data were processed

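RNA (25 ng, Cy3) from 2 adult and 2 embryonic thymosphere samples was read on 4 arrays of 1 slide. Per the file headers, the intensity values deposited by the authors came from Feature Extraction 10.7.3.1 (Agilent), with background taken off and spatial trends removed array by array. The authors' value table, of unstated scaling and centring, also holds linear intensity (medians 34.4, 35.0, 35.7 and 35.1; log2 correlation with the same array's spots 0.994 to 0.998) and served as an alternative.

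Groups came from sample titles. Control and outlier spots were left out, spots of a probe were averaged on the log2 scale, and each array's 75th percentile over all its non-control spots was subtracted. Of 55681 probes, 28026 (50.3%) matched a symbol of GRCm38.p6 by accession. Probes well above background on both arrays of a group were tested, 1 per gene (all 4 arrays first, then highest mean). Adult minus embryonic was fitted over 13667 genes with limma 3.58.1 (lmFit, eBayes) in R 4.3.3 on 4 arrays without covariates, with Benjamini-Hochberg adjustment, called under 0.05. Where a probe was dim on both arrays of a group, "at least N-fold" compares the brighter mean with a floored mean, each dim array entering at the larger of the probe's signal and that array's faintest signal counted as well above background.

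Members, lists and tests were chosen with earlier results of these data known. Named were all members, called genes of the lists with values for the 2 largest changes per direction, and the most similar gene; further values were chosen after they were seen. The fit was tested on simulated data. With 200 genes changed it called none of them, even at log2 shifts of 3 and -3. With 6000 genes changed it recovered 68.6% to 97.2% of them, depending on the shift. In the simulation calls thus came only where many genes changed. No spot was saturated. The number of arrays limits the precision. Array position and group cannot be told apart. The genome build of the array design was not used for coordinates.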

Additional observations from a re-analysis of the deposited data

How the results depend on the processing

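Of 18 alternatives, 4 were chosen after seeing the data (normexp on the median spot signal, since the planned version needs a mean signal and was not run, the percentile without outlier spots, outlier spots kept, and dim levels raised to the lowest passing level of their array). The 7315 calls over all genes (2388 higher, 4927 lower in adult spheres) became 11527 after centring on the median of all probes (1690 higher, 9837 lower), 3817 after centring on the tested genes (2775 higher, 1042 lower), 2719 with no filter (1789 higher, 930 lower) and 3346 with normexp, against 5722 over genes that passed the background on every array (329 higher, 5393 lower), and ranged from 0 to 7543 with 1 array left out. The 2 calls among the 9 genes became 1 after centring on all probes, with no filter, over genes that passed on every array and with normexp, and ranged from 0 to 4 with 1 array left out; the 26 other skeletal calls became 11 with no filter, 13 over genes above background on all 4 arrays and 13 with normexp, and ranged from 0 to 24. After centring on all probes the log2 fold change was 1.14 for Runx2 (call lost), -0.48 for Spp1 and -0.84 for Postn (signs turned). In the deposited table it was 0.74 for Runx2 (call lost), 1.56 for Spp1 and 1.17 for Postn (called), and -0.32 for Comp (sign turned). Runx2 also lost its call with no filter (2.33) and with normexp (0.61). Raising dim levels gave 6126 calls over all genes, 20 skeletal calls and the same 2 of the 9. With 1 array left out the ranges were 1.86 to 2.80 for Runx2, 0.29 to 1.12 for Spp1, -1.19 to 3.62 for Comp, -2.03 to -1.82 for Matn2 and -0.19 to 0.88 for Postn, where a lone array is assumed to vary like the other group. The cause of these changes was not tested, except that fewer arrays or genes entered some fits. With the replicate number as a block, 7027 genes, 24 skeletal genes and the same 2 of the 9 were called (Runx2 2.33, adjusted p = 0.0219; Matn2 -1.92, adjusted p = 0.0166); the numbers were not shown to pair the arrays (correlation of replicate differences between groups 0.07, across genes). Genes near background have no measurable difference at this signal.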
